A study of Mus musculus with 4 samples.

Results

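The ocular lens is built and maintained by a small set of transcription factors. Here 10 genes were followed in mouse lenses with a conditional deletion of Celf1, the gene of an RNA-binding protein. The 10 genes were Pax6, Six3, Sox2, Foxe3, Pitx3, Maf, Prox1, Hsf4, Sox1 and Prdm16. The members were every probe whose symbol in the deposited normalized table was 1 of these 10 names, which gave 17 probes of 10 genes among the 28850 genes named on the array. Gene expression was measured in 4 mouse lenses at postnatal day 6 (P6), 2 from Celf1 cKO mice (replicates A and B) and 2 from Control mice (replicates A and B), with RNA of 1 lens on each Illumina MouseWG-6 v2.0 BeadChip array. In Celf1 cKO mice, 1 Celf1 allele was a lacZ knock-in, which is null in the germline, and the other was a conditional Celf1 allele with loxP sites around exon 5. Their Cre recombinase came from the Pax6GFPCre transgene, driven by a lens promoter of Pax6 from the placode stage on. The Control mice (Celf1lacZKI/+) had the same knock-in and 1 wild-type allele, so that all 4 lenses had at least 1 mutant Celf1 allele. Whether Control mice carried Cre was not given in the sources used here, nor was the sex of any animal. The genetic background was a mixture of C57BL/6 and FVB.

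A vertebrate lens has a front layer of dividing epithelial cells and a mass of elongated fiber cells that fill with crystallins and lose their organelles. Pax6, Six3 and Sox2 act early, when surface ectoderm becomes lens. Foxe3 and Pitx3 maintain the epithelium, whereas Maf, Prox1, Hsf4 and Sox1 drive fiber cells to elongate, leave the cell cycle and make crystallins. Prdm16, a zinc-finger protein of the PR-domain family, is best known for its part in brown fat cell fate and in craniofacial development. The study names it as a candidate whose role in the lens is still to be examined.

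Of the 10 genes, 3 were reduced in Celf1 cKO lenses and 0 were elevated. At an unadjusted limma p under 0.05 and with no fold threshold, 6 were lower (Prdm16, Maf, Foxe3, Sox2, Hsf4 and Prox1) and 0 higher, beside 15.1% of all genes lower and 16.8% higher. Prdm16 was reduced 5.84-fold, Maf 2.23-fold and Foxe3 1.76-fold. Another 6 genes were not called, and Pax6 was not detectable on any array. To be called, a gene had to have a limma adjusted p under 0.05, a change of more than 0.58 on the log2 scale in either direction, and a log2 signal that averaged over 4.6. By the same rule, 11.7% of the 11516 genes tested were called, 5.66% as reduced and 6.01% as elevated. The median log2 fold change (cKO minus Control) of the 9 members tested was -0.43, beside 0.01 for all genes tested. In 7 of the 9 members the groups did not overlap, which was also so for 62.3% of all genes. In whole lenses, fewer cells of a type and less RNA per cell cannot be told apart.

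The probes are 50 bases long, and how many of a gene's probes gave signal decided what could be measured. The first 30 bases are shown for Prdm16 and Sox2, where 1 probe was detected on all 4 arrays and the other on none, for Maf, where both probes were detected, and for Pax6, where neither was. They are in lower case, 5′ to 3′, as deposited.

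Prdm16 probe 1, detected: ctaggtgggagctagtcctgtgtaagttca
Prdm16 probe 2, not detected: gagaatcacatgattaagccttttggtaat
Sox2 probe 1, not detected: gcaggttgatatcgttggtaatttataata
Sox2 probe 2, detected: accagctcgcagacctacatgaacggctcg
Maf probe 1, detected: gtcagtctgtccgcagccttcctgggtcac
Maf probe 2, detected: gcgcgaaagggacgcctacaaggagaaata
Pax6 probe 1, not detected: ctgtattactgttcacagtccaatcatttt
Pax6 probe 2, not detected: gatatgaattcaaggagaagttgatagcta

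A probe was taken as detected on an array at a detection p under 0.05, where this p ranks its intensity among those of negative control beads. By this measure 11 of the 17 probes were detected on all 4 arrays, 5 on 0 arrays, and the Sox1 probe on the 2 cKO arrays alone. The 12 probes detected on at least 2 arrays were retained and covered 9 genes. The 5 that were not were both Pax6 probes, Sox2 probe 1, Six3 probe 2 and Prdm16 probe 2. Their GC content lay between 32% and 54%, beside 50% to 76% for the retained probes. Each member probe was read on 25 to 61 beads per array, and for retained probes the standard error over beads was 2.22% to 10.67% of the intensity. The deposited annotation places the Prdm16 probes at chr4:153692626-153692675 (probe 1, minus strand) and chr4:153694448-153694497 (probe 2) and the Foxe3 probe at chr4:114597789-114597838 (minus strand), with no genome build named. Whether a probe lies in a coding exon or a UTR was not determined here.

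**Figure D1:**
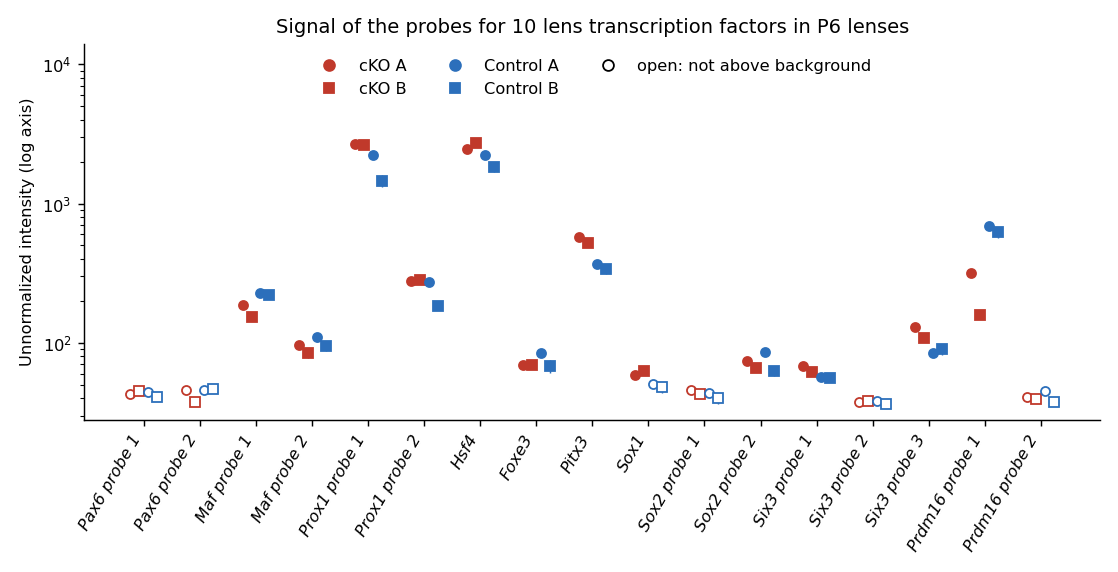
Unnormalized intensity (log axis, arbitrary fluorescence units) of all 17 member probes on the 4 arrays, with cKO in red, Control in blue, circles for replicate A and squares for replicate B. Bars are the standard error over beads, mostly smaller than the symbols, and open symbols mark probes not above background; Prdm16 probe 1 was at 316 and 159.7 on the cKO arrays and at 692.2 and 620 on the Control arrays, and the 5 undetected probes read between 36.6 and 46.9 on every array.

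The arrays differed in brightness between the groups. The number of probes detected ranged from 16261 to 16925 on the cKO arrays and from 14180 to 14542 on the Control arrays, and the 99th percentile of intensity from 3209 to 3444 and from 1699 to 2158. Celf1, the targeted gene, had normalized log2 signals of 7.51 and 7.01 in cKO and of 8.78 and 8.62 in Control lenses (log2 difference -1.44 ± 0.20, SE; limma adjusted p = 0.0107). All 8 lens fiber markers (Cryaa, Crybb1, Crygs, Mip, Lim2, Bfsp2, Dnase2b and Birc7) were detected on all 4 arrays, and 3 of them were called reduced (Birc7 at -1.44, Dnase2b and Bfsp2). The lens epithelium markers summed to 103 and 80.5 in cKO and to 114 and 119 in Control lenses, with 0 of 5 called by limma. Marker sums average all probes of a gene on the log2 scale, detected or not, and leave out the offset of 16 added in background correction. On retained probes alone, Pdgfra had a log2 fold change of -1.13 and Cdh1 of -0.54. Mki67 was at 0.31, Cdk1 at 0.23 and Npnt at 6.5e-06. The retina markers Crx and Nrl were detected on no array, and Pde6b, the retina marker tested, was at 4.87 and 4.90 in cKO and at 4.43 and 4.37 in Control lenses, where it was not above background. Of 6 vessel markers tested, 1 was called (Emcn, 1.15), with a list median of -0.14, and of 3 blood markers 1 was called (Slc4a1, -1.05), with Hba-a1 at -0.08 and Hbb-b1 at 0.05. In cKO B the cornea markers summed to 95.4, beside 16.6 to 19.1 on the other arrays, and the blood markers to 293, beside 468 to 662. In Control B the pigment and ciliary epithelium markers summed to 57.0, beside 40.3 to 43.2 on the other arrays. The macrophage markers summed to 66.3 and 75.8 in cKO and to 45.6 and 50.9 in Control lenses, with Aif1 and Csf1r at -0.07 and -0.11. The other 2 macrophage markers tested, C1qb and Cd68, passed the filter through the cKO arrays alone and were at least 1.23-fold and 1.27-fold higher there under quantile normalization. Xist, the X-inactivation RNA, had log2 signals of 7.48 and 7.33 in cKO and of 4.26 and 4.39 in Control lenses, and the Y-linked Ddx3y of 6.86 and 4.83 in cKO and of 9.06 and 8.88 in Control lenses. The part of these fiber, epithelium, retina, vessel, blood, cornea, pigment and macrophage genes in the results was not tested, and with these samples genotype cannot be told apart from sex or from array brightness.

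Among the early factors, Pax6, the paired-box regulator at the head of eye development, was not detectable. Its probe 1 read 42.9 and 45.4 in cKO and 44.5 and 41.1 in Control lenses, with detection p from 0.438 to 0.600. Its probe 2 read 45.7 and 37.5 in cKO and 45.6 and 46.9 in Control lenses, with detection p from 0.0897 to 0.981. None of the 8 readings was above background. No fold change is given, and the arrays do not show whether Pax6 mRNA differed between the groups.

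Six3, a homeobox factor related to fly sine oculis that acts upstream of Pax6 in the lens, had 2 retained probes. Before normalization, probe 1 read 67.8 and 61.4 in cKO and 57 and 56.3 in Control lenses, and probe 3 read 129.6 and 107.6 in cKO and 84 and 90.3 in Control lenses. Both probes were thus brighter on the cKO arrays. After normalization the mean log2 signal of Six3 was 5.76 and 5.39 in cKO and 5.41 and 5.96 in Control lenses, so that the groups overlapped. The log2 fold change was -0.11 ± 0.22 (SE, n = 2 in each group; limma adjusted p = 0.761), with a 95% interval from -0.65 to 0.42, and the probes gave -0.11 each. With 2 lenses in each group, the values were compatible with any change within this interval. Six3 turned above 0 with the arrays set to the same median (0.39) or not normalized (0.43), and without cKO B (0.07) or Control B (0.17).

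Sox2, a factor of the SOXB1 family that works with PAX6 in lens induction, was measured by probe 2. This probe read 74.1 and 65.5 in cKO and 85.9 and 62.6 in Control lenses. Control B was the lowest of the 4 readings and Control A the highest. After normalization the log2 signal was 5.32 and 4.97 in cKO and 6.03 and 5.68 in Control lenses, and on this scale the groups no longer overlapped. Sox2 had a log2 fold change of -0.71 ± 0.19 (SE, n = 2 in each group), and the limma adjusted p of 0.0549 missed the threshold. Sox2 was called in 4 of the 22 settings run: with the replicate letter as a block, with both stricter detection filters, and with arrays scaled to an equal median of the probes detected on every array.

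Of the epithelial factors, Foxe3, a forkhead protein that keeps lens epithelial cells dividing and alive, was reduced. Its probe read 69.2 and 69.7 in cKO and 84.1 and 67.9 in Control lenses, so that the unnormalized groups overlapped through Control B. The normalized log2 signal was 5.16 and 5.09 in cKO and 5.98 and 5.91 in Control lenses. Here both cKO lenses lay below both Control lenses, with an SD of 0.05 in each group. The difference was -0.82 ± 0.14 on the log2 scale (SE, limma adjusted p = 0.0176). It lay between -1.15 and -0.26 over the 9 ways of background correction and scaling. Foxe3 was not called with the deposited values at a minimum of 1 (limma adjusted p = 0.0713), with equal array medians (adjusted p = 0.231) or without normalization (adjusted p = 0.312). Without background correction (-0.51) and with an offset of 50 (-0.47) it missed the fold threshold. A minimum log2 signal of 6 also ended the call. The call was lost when cKO A (-0.82, adjusted p = 0.0792), cKO B (-0.74, adjusted p = 0.133) or Control B (-0.90, adjusted p = 0.0640) was left out.

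Pitx3, a homeobox factor whose loss leaves mice without a proper lens, read 573.4 and 520.6 in cKO and 366.2 and 337.2 in Control lenses before normalization. Normalized, its log2 signal was 8.77 and 8.52 in cKO and 8.72 and 8.96 in Control lenses. The cKO arrays were thus the brighter ones before normalization, and the groups overlapped after it. Its log2 fold change was -0.20 ± 0.16 (SE, limma adjusted p = 0.449, 95% interval -0.59 to 0.19). Pitx3 was called elevated with the arrays set to the same median (0.64, adjusted p = 0.0144) or not normalized (0.67, adjusted p = 0.0104), and these scalings put the median over all genes at 0.53 and 0.57.

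**Figure D2:**
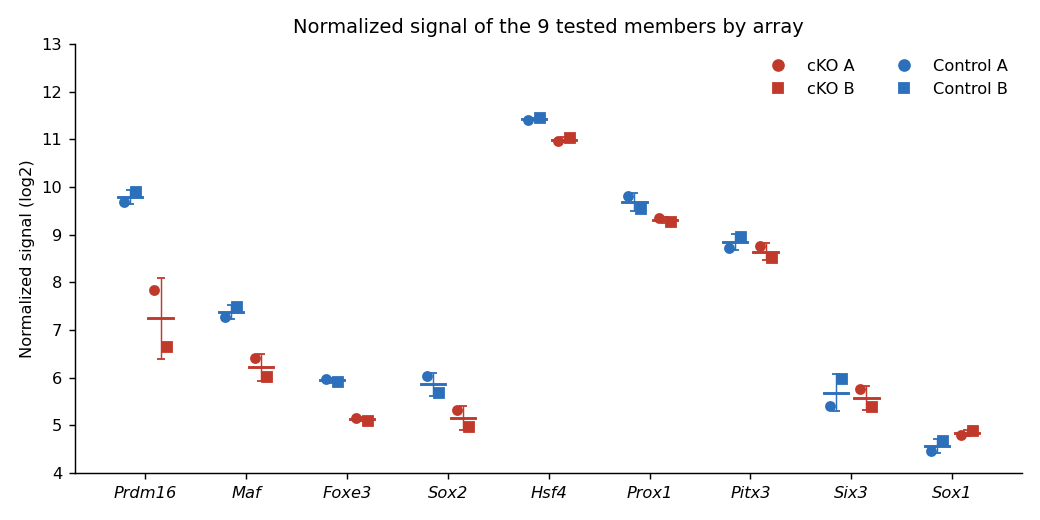
Normalized log2 signal of the 9 members tested, in the order of their log2 fold change, with Control lenses in blue and Celf1 cKO lenses in red (circles for replicate A, squares for replicate B). Horizontal lines are group means and bars their SD (n = 2); Prdm16 fell from 9.79 in Control to 7.25 in cKO lenses, Maf and Foxe3 were also apart, and the groups of Pitx3 and Six3 overlapped.

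Among the fiber cell factors, Maf (c-Maf), the basic leucine zipper protein that activates crystallin genes and fiber elongation, was reduced at both of its probes. Probe 1 read 185.9 and 152.5 in cKO and 229.2 and 219.6 in Control lenses, so that the groups were apart before normalization. The Control arrays were the dimmer ones, and the part of array brightness was not tested. Probe 2 read 95.8 and 83.9 in cKO and 109.5 and 95.1 in Control lenses, with cKO A and Control B at nearly the same intensity. The normalized log2 signal of the gene was 6.42 and 6.02 in cKO and 7.27 and 7.49 in Control lenses. Each cKO lens was below each Control lens. Maf differed between the groups by -1.16 ± 0.18 on the log2 scale (SE, limma adjusted p = 0.0150), with -1.33 ± 0.20 at probe 1 (adjusted p = 0.0119) and -0.99 ± 0.18 at probe 2 (adjusted p = 0.0195). Of the 12 member probes tested singly, 4 were called, beside 11.3% of all 16262 probes. Leaving out cKO B (-0.94, adjusted p = 0.0903) or Control B (-1.07, adjusted p = 0.0788) ended the call of Maf. Over the 9 scalings Maf ranged from -1.32 to -0.41, and it was not called with equal array medians (adjusted p = 0.0808), without normalization (adjusted p = 0.114) or with the deposited values at a minimum of 1 (adjusted p = 0.0771).

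Prox1, a homeobox factor that takes fiber cells out of the cell cycle and lets them elongate, had 2 retained probes, whose standard error over beads was 2.22% to 9.265% of the intensity. Probe 1 read 2665 and 2627 in cKO and 2227 and 1457 in Control lenses, and probe 2 read 276.5 and 281.8 in cKO and 274.4 and 183.7 in Control lenses. Both probes were brightest on the cKO arrays before normalization. The normalized log2 signal of the gene was 9.35 and 9.26 in cKO and 9.82 and 9.55 in Control lenses, with the groups apart in the other direction. Prox1 differed by -0.37 ± 0.16 on the log2 scale (SE, limma adjusted p = 0.153), -0.25 at probe 1 and -0.50 at probe 2, and none of the 22 settings called it.

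Hsf4, the heat shock factor of maturing fiber cells, read 2470 and 2727 in cKO and 2248 and 1827 in Control lenses. Its normalized log2 signal was 10.96 and 11.03 in cKO and 11.41 and 11.44 in Control lenses, and the order of the groups was again reversed by normalization. The SD was 0.04 in cKO and 0.03 in Control lenses. The log2 fold change was -0.43 ± 0.14 (SE, 95% interval -0.75 to -0.11), and the limma adjusted p of 0.0818 missed the threshold. Prox1 and Hsf4 both turned above 0 with the arrays set to the same median (0.41 and 0.32) or not normalized (0.45 and 0.36), although both stayed below the median of all genes in all 9 ways of background correction and scaling.

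Sox1, a SOXB1 factor required for gamma crystallin expression, passed the filter only through the cKO arrays. Its probe read 58.7 and 63.1 in cKO (detection p 0.0118 and 0.00641 against negative control beads) and 50.2 and 47.8 in Control lenses (detection p 0.157 and 0.0727). The signal exceeded background in the cKO lenses and not in the Control lenses. The normalized log2 signal was 4.80 and 4.89 in cKO and 4.47 and 4.67 in Control lenses. Against the lowest signal detected on the Control arrays, the cKO lenses had at least 1.07-fold more Sox1 signal under quantile normalization (limma adjusted p = 0.249), but the difference turned to -0.28 with arrays at an equal median of the detected probes. As the probe was kept for its cKO signal, neither the bound nor the p supports a direction for Sox1.

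Prdm16 had the largest change of the members and ranked 25 of 11516 genes by the size of its log2 fold change. Probe 1 read 316 and 159.7 in cKO and 692.2 and 620 in Control lenses, the lowest Control reading being higher than the highest cKO reading on arrays that were dimmer. The normalized log2 signal was 7.85 and 6.64 in cKO and 9.69 and 9.89 in Control lenses. Both cKO lenses were lower than both Control lenses, and cKO B was lower than cKO A. The SD was 0.85 in cKO and 0.14 in Control lenses. The log2 fold change was -2.55 ± 0.36 (SE, n = 2 in each group; 95% interval -3.39 to -1.70; limma adjusted p = 0.0113). This SE was drawn by limma toward the spread of all genes, so it is smaller than these SDs alone would give. Celf1, Ddx3y and the blood markers were likewise lower in cKO B than in cKO A and the cornea markers were higher, and the part of these cells was not tested.

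The size of the Prdm16 difference depended on which cKO lens was used, with a log2 fold change of -3.13 without cKO A (adjusted p = 0.00158) and of -1.93 without cKO B (adjusted p = 0.010). Without Control A it was -2.65 (adjusted p = 0.0366), and without Control B it was -2.46 and no longer called (adjusted p = 0.0748). Over the 9 ways of background correction and scaling it ranged from -2.66 to -1.70, and from -2.64 to -2.27 relative to the median of all genes. Probe 2 of Prdm16, whose sequence is given above, read 40.5 and 39.4 in cKO and 44.9 and 37.6 in Control lenses and was above background on none. All values for Prdm16 thus rest on 1 probe. Within an array, where scaling cancels, the log2 ratio of Prdm16 to each of the other 7 members detected on all 4 arrays was lower in cKO than in Control lenses, with differences from -1.29 (to Maf) to -2.38 (to Pitx3).

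**Figure D3:**
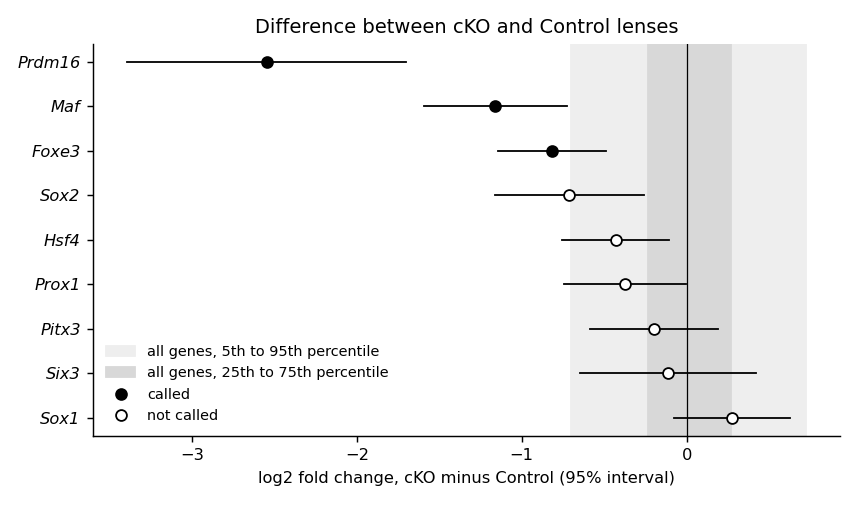
Log2 fold change (cKO minus Control) of the 9 members tested, with its 95% interval from limma; filled circles were called, and grey bands hold the middle 50% and 90% of all 11516 genes tested. Prdm16 at -2.55, Maf at -1.16 and Foxe3 at -0.82 were called, and the interval of Sox1, Six3 and Pitx3 included 0.

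How far the members moved together depended on the scaling of the arrays. With quantile normalization 8 of 9 members were below 0. Setting the arrays to the same median moved the median of all genes to 0.53 and no normalization moved it to 0.57, and Prox1, Hsf4, Six3 and Pitx3 then lay above 0. Relative to the median of all genes, 8 of the 9 were below 0 in each of the 9 ways, the exception being Sox1 or Pitx3. The median of the members lay at -0.51 to -0.21 relative to that of all genes. Prdm16, Maf, Foxe3 and Sox2 were below 0 in all 9 ways, on both scales. Over all 22 settings Prdm16 was called in 18, Maf in 15 and Foxe3 in 12.

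**Figure D4:**
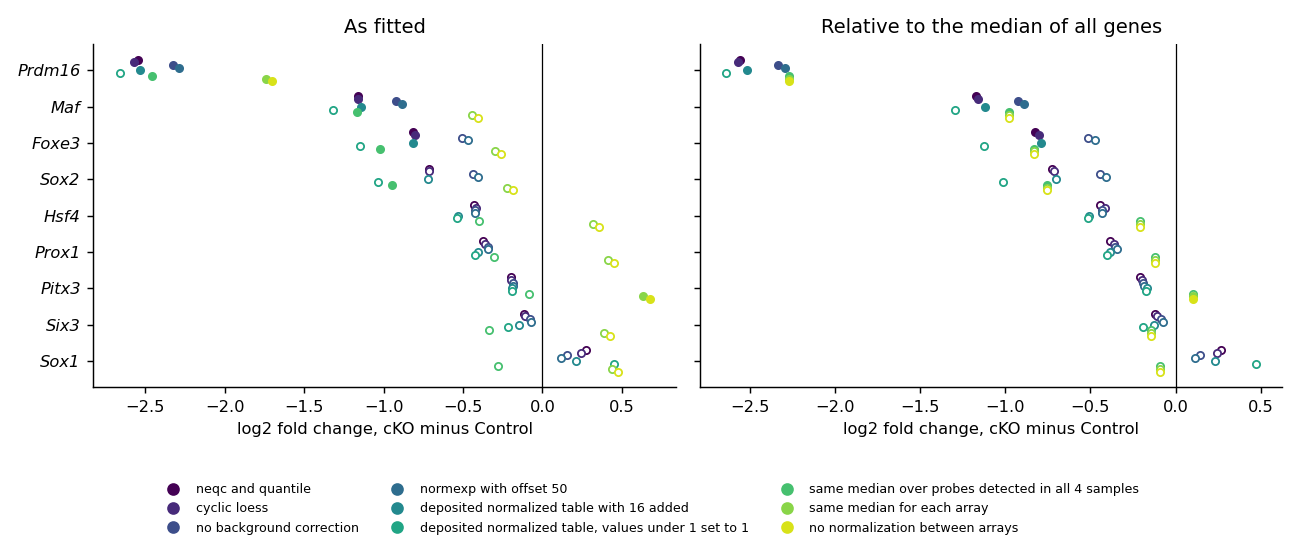
Log2 fold change (cKO minus Control) of the members under 9 ways of background correction and scaling between arrays, as fitted (left) and relative to the median of all genes tested (right); filled circles were called. Prox1, Hsf4, Six3 and Pitx3 crossed 0 as fitted under the 2 scalings that shifted all genes up, and Prdm16 stayed between -2.66 and -1.70.

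The genes whose 4 normalized values, each centred on its own mean, lay nearest to those of a called member were named by root mean square difference over the 4 arrays. For Prdm16 they were Dipk2a (0.147 log2 units), E330034G19Rik (0.187) and Crygf (0.240), the last a gamma crystallin. For Maf they were Dnmbp, Mxd1 and Rbm38 (0.0364 to 0.0512). For Foxe3 they were Prf1, Pak2 and Mvk (0.0262 to 0.0286). With 4 arrays in 2 groups, any gene with a like difference between the groups is near by this measure.

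Genes linked to the members as targets or as products of the same cells were followed as a list of 22, of which 21 were tested. Of these, 8 were reduced and 0 elevated, beside 5.66% and 6.01% of all genes, and the median log2 fold change was -0.41. The count of calls was 16 with the deposited table plus 16 or with equal medians of the detected probes, 3 with equal array medians or no normalization, 1 with no detection filter or with treat, 0 with the deposited values at a minimum of 1, and 1 to 6 with 1 lens left out (5 when cKO A, 2 when cKO B and 1 when Control B was dropped). Relative to all genes the median of the list was -0.79 to -0.24 over the 9 scalings. The list was chosen with earlier results of these data known, and 7 of its genes are also among the fiber markers. Crygf, a gamma crystallin, was reduced most, at 8.06 and 7.44 in cKO and 10.49 and 10.55 in Control lenses (log2 fold change -2.77 ± 0.22, SE; limma adjusted p = 0.00241). Dnase2b codes for the nuclease that degrades DNA of fiber cell nuclei. It is a known target of HSF4, and the study cites it as an RNA bound directly by Celf1 protein. Dnase2b was at 6.42 and 5.85 in cKO and at 7.69 and 7.83 in Control lenses (-1.62 ± 0.21, SE; limma adjusted p = 0.00902). Both cKO lenses were below both Control lenses for these genes, and both remained below 0 in all 9 scalings.

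Further down the same list, the growth factor receptor gene Fgfr3 was reduced (-0.998, limma adjusted p = 0.0196), as were Cryge (-0.97, adjusted p = 0.0140), the beaded filament gene Bfsp2 (-0.74, adjusted p = 0.0254) and the small heat shock protein gene Hspb1 (-0.68, adjusted p = 0.0274). All 4 were called in 6 of the 9 scalings, over which Fgfr3 ranged from -1.25 to -0.32, Cryge from -1.01 to -0.12, Bfsp2 from -1.05 to -0.15 and Hspb1 from -0.82 to 0.08. Dnase2b lost its call without Control B, Fgfr3 and Cryge without cKO B or Control B, and Bfsp2 and Hspb1 without cKO A, cKO B or Control B, and the highest adjusted p among these 5 genes was then 0.158. Of the 7 gamma crystallin genes listed, 4 were called reduced, of which Cryga and Crygb lost the call whichever lens was left out (adjusted p up to 0.212 and 0.263), and since they are near copies of each other their probes may share signal. The alpha crystallin genes were not called, with Cryaa at -0.21 and Cryab at -0.24. Crystallin probes were among the brightest, where quantile normalization sets values by rank (Crygc was at 15.01 on 3 of the 4 arrays), so small differences there were not resolved. Cdkn1c, the cell-cycle inhibitor p57 whose expression in fiber cells depends on PROX1, was at 0.30 (adjusted p = 0.219) and Cdkn1b (p27) at -0.41 (adjusted p = 0.173).

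A list of 28 other transcription factors of the lens had 22 genes tested, of which 1 was reduced and 0 were elevated, beside the 5.66% and 6.01% of all genes given above, with a median of -0.11. Log2 fold changes ran from -0.81 to 0.45 apart from 3 genes above background in neither Control lens (Etv4, Mab21l1 and Sox11), of which Etv4 was at 4.64 in cKO A and 5.86 in cKO B. The reduced gene was Tfap2a, the AP-2 alpha factor of the lens epithelium, at 6.74 and 6.28 in cKO and 7.29 and 7.36 in Control lenses (-0.81 ± 0.18, SE; limma adjusted p = 0.0372). Its groups were apart, it ranged from -0.90 to -0.04 over the 9 scalings with a call in 6 of them, and it lost the call without cKO B, Control A or Control B (adjusted p up to 0.226). Mafg, a small MAF protein that can pair with larger ones, was at 0.41 (adjusted p = 0.133), in the direction opposite to Maf.

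Of 24 paralogs of the members, only 7 had a retained probe, and Pax2, Sox3, Six6, Prox2 and Foxe1 were among the 17 without. The 7 had a median log2 fold change of 0.01. Mecom, the closest relative of Prdm16, was reduced, at 4.82 and 4.99 in cKO and 5.84 and 5.47 in Control lenses (-0.75 ± 0.17, SE; limma adjusted p = 0.0389). The groups of Mecom did not overlap, its value ranged from -1.18 to -0.29 over the 9 scalings with a call in 4 of them, and the call was lost whichever lens was left out (adjusted p up to 0.182). Other PR-domain genes were not called, with Prdm4 at -0.31 and Prdm15 at 0.15.

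A list of 14 partners and linked genes of Prdm16 from other tissues had 8 genes tested, with 2 called elevated and 0 reduced, beside 6.01% and 5.66% of all genes, and a median of 0.09. Of these calls, that of Tgfbr2 came through the detection filter on its cKO signal alone, and Cebpb was the other. Cebpb, which codes for the C/EBP beta partner of PRDM16 in brown fat, was at 6.43 and 6.68 in cKO and 4.98 and 5.40 in Control lenses (1.36 ± 0.19, SE; limma adjusted p = 0.0110). Tgfbr2, a TGF-beta receptor gene, was above background in neither Control lens. Under quantile normalization it was higher in cKO lenses by at least 2.02-fold (limma adjusted p = 0.0119). Over the 9 scalings the measured log2 fold change of Tgfbr2 ranged from 0.63 to 1.95, so the bound holds for that scaling only. Its p is not independent of the filter, and without cKO A or cKO B it could not be tested. Cebpb was above 0 in all 9 scalings. The call of Cebpb was lost without cKO B (adjusted p = 0.0657) and that of Tgfbr2 without Control B (adjusted p = 0.0587). The brown fat genes Ucp1, Cidea, Pparg and Ppargc1a did not pass the detection filter, and the PRDM16 partner genes Ehmt1 and Ctbp2 were at -0.64 and 0.12 and were not called. The part of macrophage and vessel cells, whose markers are given above, was not tested.

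**Figure D5:**
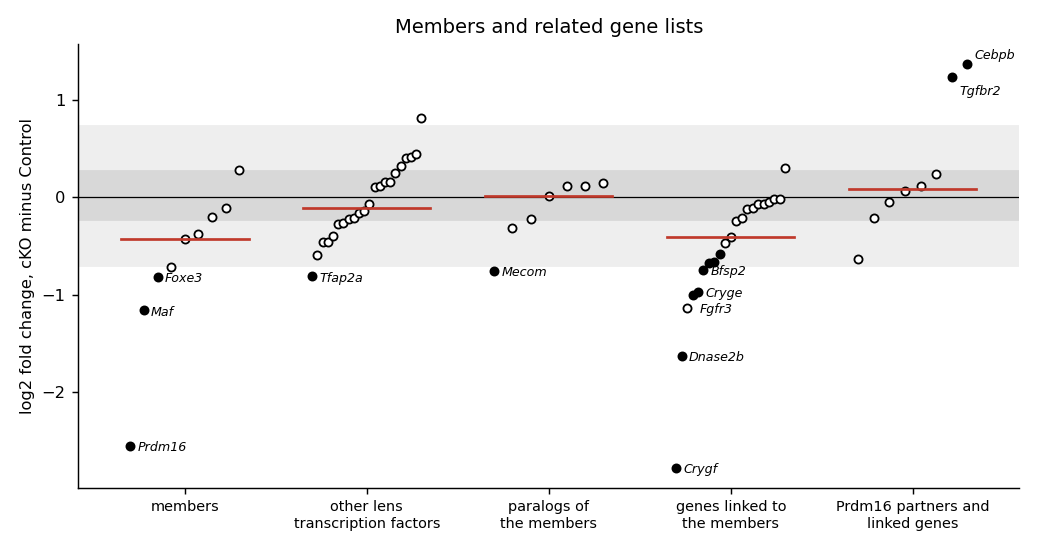
Log2 fold change (cKO minus Control) of each tested member and of each tested gene in the 4 related lists; filled circles were called, red lines are list medians, and grey bands hold the middle 50% and 90% of all genes tested. Calls in the lists of members, other lens transcription factors, paralogs and linked genes were all reductions, and the 2 calls among Prdm16 partners were elevations, 1 of them (Tgfbr2) of a gene above background in neither Control lens.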

How the data were processed

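Total RNA of 4 P6 lenses was hybridised to single-colour arrays. The authors deposited unnormalized and rank-invariant normalized signal intensity per probe, together with a detection p-value, bead number and bead standard error. The unnormalized intensity was used, and lines with shifted cells (18 of 45281) were left out. The rank-invariant scaling had multiplied the arrays by factors from 0.889 (cKO B) to 1.93 (Control B). Probes were named through RefSeq (assembly GRCm38.p6), and the assigned gene equalled the symbol of the files for all 17 member probes.

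Background was corrected with neqc of limma (version 3.58.1, R 4.3.3), with negative controls inferred from detection p-values and an offset of 16, followed by quantile normalization and log2. Probes with a detection p under 0.05 on at least 2 arrays were kept (16262), and probes of the same gene were averaged on the log2 scale (11516 genes). Groups were compared with lmFit and eBayes, with two-sided p-values adjusted by Benjamini-Hochberg across all genes. The variance of each gene is drawn by eBayes toward that of all genes, so each SE, interval and p-value also rests on other genes. The fold, adjusted p and signal thresholds are those of the study, whose authors fitted a model for counts to array signal, which was not used here because the values are intensities. Sox1, Tgfbr2, C1qb and Cd68 were above background on neither Control array. Each is given with a bound against the mean, per array, of the higher of its own value and the lowest detected signal. Pde6b and Etv4, also above background on neither Control array, are given as signals without a bound. Groups of 2 against 2 allow no exact permutation p under 0.333, and the p-values measure the spread between these lenses only, pooled in part over genes. The number of arrays limits the precision. Tables were read with Python 3.11.15.

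The members and gene lists were chosen with earlier results of these data known. Named are all members, Celf1, the called genes of each list (the 6 of largest change where more were called), and the 3 nearest genes of each called member. Other list genes were named after their values were seen. The fit was tested on simulated data. The alternatives covered the table, background correction, scaling, detection filter, minimum signal, several probes per gene, variance model, fold threshold, replicate letter and each lens left out.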

Additional observations from a re-analysis of the deposited data

How the results depend on the processing

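Beside 3 members, 4 single probes and 1, 1, 8 and 2 genes called (lists of other lens transcription factors, paralogs, linked genes and Prdm16 partners), the deposited normalized values with a minimum of 1 gave 0, 0, 0, 0, 0 and 0, no detection filter gave 1 member (Foxe3), 0 probes and 0, 0, 1 and 0 list genes, and treat against the fold threshold gave 0 members, 1 probe and 0, 0, 1 and 0. Without the filter the undetected probe of Prdm16 was averaged in (-1.30, limma adjusted p = 0.0927). Celf1 kept its call in 17 alternatives and lost it in 4. Among these were the deposited values at a minimum of 1 (-1.52), no detection filter (-1.17) and treat (-1.44). Celf1 was at -0.64 with equal array medians and at -0.60 without normalization. Equal array medians gave 2 probes and 8, 2, 3 and 5 list genes, no normalization 9, 2, 3 and 5, and equal medians of the probes detected on every array 3, 2, 16 and 3. The deposited table with 16 added gave 16 linked genes, the brightest probe 2 other factors, detection in all 4 samples 2 other factors and 1 partner, a minimum log2 signal of 6 gave 0 paralogs and 0 partners, and no background correction or an offset of 50 gave 0 paralogs. Leaving out 1 lens gave 0 to 3 members, 0 to 3 probes, 0 to 1 other factors, 0 paralogs, 1 to 6 linked genes and 0 to 2 partners, with the lone lens of a group assumed to vary like those of the other group.

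Over all genes, 1344 calls (51.5% elevated) became 7 (71.4%) with the deposited table at a minimum of 1, 5417 (97.3%) at the same median, 5788 (97.7%) without normalization, 2690 (24.8%) at the same median over detected probes, 820 with an offset of 50, 878 with the higher minimum signal, 155 without the filter, 84 with treat, and 113 to 1315 with 1 lens left out (113 without Control B, 169 without cKO B, 512 without cKO A).

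Direction turned at the same median and without normalization for Prox1 (0.41 and 0.45; probe 1 0.52 and 0.56, probe 2 0.31 and 0.34), Hsf4 (0.32 and 0.36), Pitx3 (0.64 and 0.67) and Six3 (0.39 and 0.43; probe 1 0.24 and 0.27, probe 3 0.54 and 0.58, the last with adjusted p = 0.0414). Six3 ranged from -0.40 (probes -0.38 and -0.43) upward with 1 lens left out and turned without cKO B (0.07, probes 0.03 and 0.10) and without Control B (0.17, probes 0.14 and 0.20), and Sox1 at the same median over detected probes (-0.28). The cause was not tested.

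Groups shared replicate letters, but the A minus B differences of the groups were uncorrelated (r = -0.01 across 11516 genes), so the letters were not taken as pairs. A replicate block gave 4 members (Maf, Foxe3, Sox2 and Prdm16), 5 probes and 1757 genes. A block for the slide could not be run, since no slide is given. Single arrays of 1 lens limit all values, and members near background (Sox1, Six3, Sox2 and Foxe3) have the least signal behind them.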
